A study of Mus musculus with 23 samples.

Results

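The genes that write, copy and oxidise DNA methylation were examined in mouse embryonic stem cells (ESCs) with and without treatment to remove the DNA-binding domain of KDM2B. The set held 8 genes, which were Dnmt1, Uhrf1, Dnmt3a, Dnmt3b, Dnmt3l, Tet1, Tet2 and Tet3. They were found by gene name in the deposited RNA-seq tables, where values that share a name were summed. All 8 were present among 23363 gene names, and all 8 were among the 12997 genes tested.

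Cytosine methylation in mammals is placed almost entirely at CpG, a C followed by a G. DNMT1 copies it onto the new strand after replication, guided by UHRF1, which recognises hemimethylated sites. DNMT3A and DNMT3B place new methylation, and DNMT3L, which has no catalytic activity of its own, stimulates both. The TET proteins oxidise 5-methylcytosine and so open routes to its removal. KDM2B binds nonmethylated CpG through a ZF-CxxC domain, a zinc finger fold that is also found in DNMT1, TET1 and TET3, whereas TET2 lacks one.

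Both groups were Kdm2b fl/fl ESCs that carry Cre recombinase fused to a tamoxifen-responsive receptor domain at the Rosa26 locus, so floxed alleles and Cre were common to all samples. The cells were grown on inactivated mouse embryonic fibroblast feeders in serum and LIF, then settled overnight off the feeders. The untreated group comprised 3 biological replicates, and the tamoxifen group comprised 3 replicates kept in 4-hydroxytamoxifen for 72 hr, with the dose written as 800 nM in the sample labels and as 800 µM in the series text. In the treated cells Cre removes an exon that codes for most of the ZF-CxxC domain, and the design leaves the rest of the gene in place. The samples used here hold no tamoxifen-treated cells without Cre, so effects of the drug and of the exon loss cannot be told apart. The other 17 of 23 samples of the series are ChIP-seq and input samples and were not analysed here.

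Groups followed the labels of the samples. The file names read the other way round for each of the 6 samples, and if they were right all differences here would have the opposite sign at the same size. Kdm2b itself, which was 27.0, 21.5 and 27.7 FPKM in untreated replicates 1, 2 and 3 and 19.9, 21.9 and 25.0 in tamoxifen replicates 1, 2 and 3, is a value for the whole gene, does not resolve the deleted exon and so does not check the labels. FPKM is the number of sequenced fragments per kilobase of transcript, scaled by the mapped fragments of the sample, so levels can be compared between genes. Comparison between samples depends on the scaling, since the FPKM of a sample summed to between 549379 and 1045707. Between 11571 and 11980 entries per sample had at least 1 FPKM. Single-fragment steps among low genes gave relative depths of 0.655 to 0.953 for the other 5 samples against untreated replicate 1. The ESC label held in every sample, with Pou5f1 between 369 and 832 FPKM and Dppa5a between 1401 and 3534 FPKM. In bulk RNA, fewer cells of a type and less RNA per cell cannot be told apart.

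Promoter sequences are shown first, because CpG is both the substrate of these enzymes and the letter pair that the removed domain binds. RefSeq promoters in GRCm38.p6 (250 bases before to 50 bases after a start) matched all 8 genes with 15 starts. In each sequence the capitals mark CG, which reads the same on both strands, and the sequence runs 5′ to 3′ on the strand of the gene. The gene with the most CpGs (Tet2) is set beside its relative Tet1, and the de novo methyltransferase gene Dnmt3a beside its cofactor gene Dnmt3l, each at its first listed start.
Tet1, chr10:62887275-62887574, minus strand: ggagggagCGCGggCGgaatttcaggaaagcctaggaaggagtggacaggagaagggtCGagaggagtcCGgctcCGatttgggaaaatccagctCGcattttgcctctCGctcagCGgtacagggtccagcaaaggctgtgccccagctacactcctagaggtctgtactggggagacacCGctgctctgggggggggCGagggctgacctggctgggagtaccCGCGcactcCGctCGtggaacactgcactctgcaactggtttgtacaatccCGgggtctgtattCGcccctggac
Tet2, chr3:133544341-133544640, minus strand: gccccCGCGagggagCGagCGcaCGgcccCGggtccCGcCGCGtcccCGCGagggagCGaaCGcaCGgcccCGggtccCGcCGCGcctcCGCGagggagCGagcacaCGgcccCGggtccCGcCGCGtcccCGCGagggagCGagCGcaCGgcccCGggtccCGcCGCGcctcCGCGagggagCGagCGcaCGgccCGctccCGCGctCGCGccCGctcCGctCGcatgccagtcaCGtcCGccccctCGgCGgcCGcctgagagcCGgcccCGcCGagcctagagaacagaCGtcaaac
Dnmt3a, chr12:3806730-3807029, plus strand: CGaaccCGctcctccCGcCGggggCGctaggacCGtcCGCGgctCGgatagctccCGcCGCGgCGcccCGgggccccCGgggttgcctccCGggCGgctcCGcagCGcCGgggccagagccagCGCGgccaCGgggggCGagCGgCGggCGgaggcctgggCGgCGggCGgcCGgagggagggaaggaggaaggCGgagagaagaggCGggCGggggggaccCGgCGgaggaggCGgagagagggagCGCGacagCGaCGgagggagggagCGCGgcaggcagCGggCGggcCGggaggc
Dnmt3l, chr10:78042037-78042336, plus strand: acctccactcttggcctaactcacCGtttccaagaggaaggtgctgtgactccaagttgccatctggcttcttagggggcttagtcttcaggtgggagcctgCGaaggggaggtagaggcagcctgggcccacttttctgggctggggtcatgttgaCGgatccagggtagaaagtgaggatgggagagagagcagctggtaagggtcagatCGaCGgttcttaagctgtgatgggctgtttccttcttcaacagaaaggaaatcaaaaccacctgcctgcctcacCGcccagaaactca

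The Tet2 promoter held 57 CpGs and a GC content of 81.3%, and the Tet1 promoter held 17 CpGs and 61.7%. Tet3 lay between them with 22 CpGs. The 3 starts of Dnmt3a had 46, 47 and 18 CpGs and the Dnmt3b start 30, whereas the 3 starts of Dnmt3l had 6, 4 and 3. Dnmt3l was thus the only member with fewer CpGs at every listed start than the median of 7 over all 32851 mouse promoters. Of the 15 member promoters, 7 were CpG-rich (observed over expected CpG of at least 0.6 and GC of at least 55%), against 30.3% of all promoters. The promoters of Dnmt3a starts 1 and 2 overlap and are both among the 7, and that of start 3 is not CpG-rich. CpG content is a property of the reference sequence, and neither methylation nor KDM2B binding was measured at these sites here.

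The de novo cofactor gene stood highest and the TET genes lowest. Dnmt3l was at 147 ± 22.7 FPKM in untreated cells (mean ± SD, n = 3), rank 440 among the 12997 genes by mean level. It was followed by Uhrf1, Dnmt3b, Dnmt1, Dnmt3a, Tet1 and Tet2, and Tet3 was the lowest at 1.73 ± 0.568 FPKM (SD, n = 3), rank 11127. Dnmt3l over Uhrf1, Dnmt1 over Dnmt3a, Tet1 over Tet2 and Tet2 over Tet3 held in 6 of 6 samples. Uhrf1 over Dnmt3b and Dnmt3b over Dnmt1 held in 5 of 6, and Dnmt3a over Tet1 in 4 of 6, so these neighbours were not separated beyond the spread between samples.

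Differences between groups were tested with limma on log2(FPKM + 0.1) over all 12997 genes, adjusted after Benjamini-Hochberg, at a threshold of 0.05. In this fit 0 of 8 members were higher and 0 of 8 lower, where 0.0231% of all genes were higher and 0.00769% were lower. At an unadjusted p under 0.05 there were 0 members, against 241 of all genes higher and 382 lower. All 8 members overlapped between groups, against 8.49% of all genes that did not. Same-numbered samples of the groups shared their deviations, so a second limma fit took the replicate number as a block and compared tamoxifen with untreated within each number. There Tet1 was lower and 0 of 8 members were higher, where 6.06% of all genes were lower and 4.33% higher. Tet1, Tet3 and Dnmt3a were lower in tamoxifen in all 3 replicate numbers and Tet2 was higher in all 3, against 28.2% and 24.8% of all genes. After TPM scaling replicate number 3 turned upward for Dnmt3a (0.08 on the log2 scale) and Tet3 (0.11), while Tet1 and Tet2 kept their direction in all 3 numbers under each scaling tried.

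**Figure D1:**
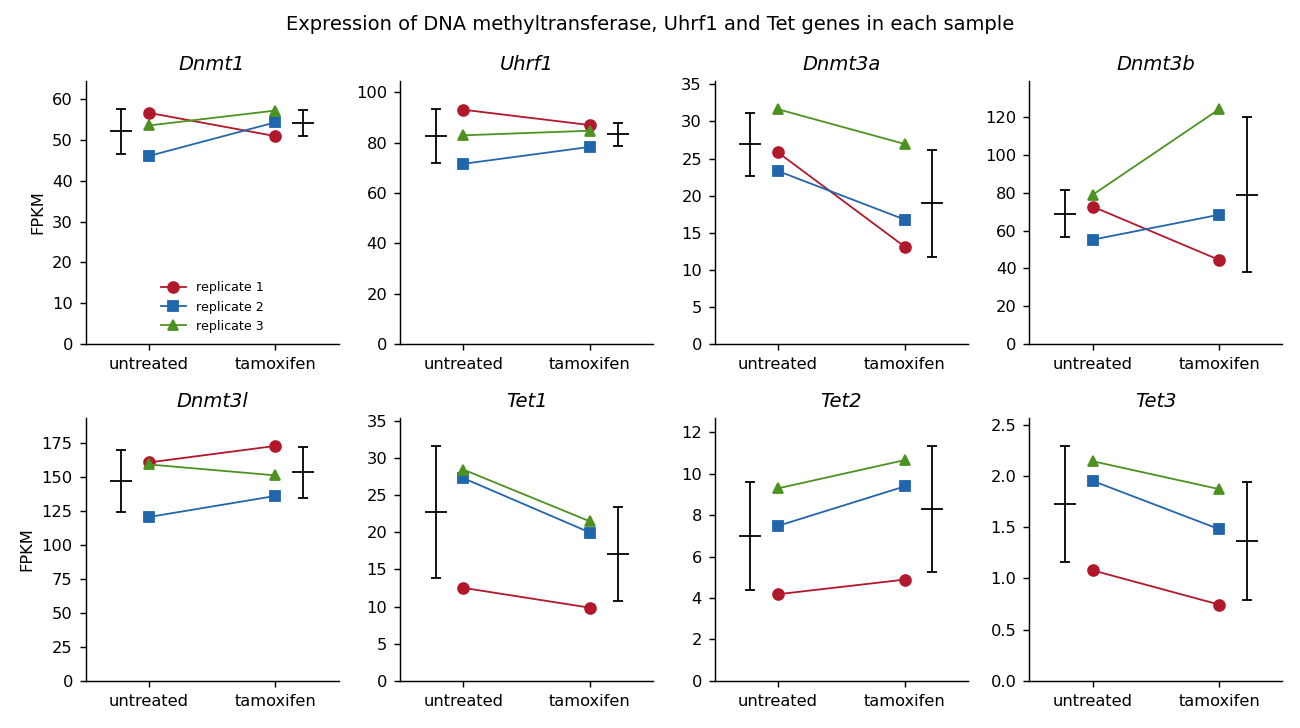
FPKM (y axes, each from 0) of the 8 genes in the 3 untreated and 3 tamoxifen samples, with lines joining samples of the same replicate number and black bars for mean ± SD (n = 3). The Tet genes are lowest in replicate 1 of both groups, Tet1 and Dnmt3a go down along every line, and Tet2 goes up along every line.

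Neither maintenance gene differed between groups beyond the spread between replicates. Dnmt1 (chromosome 9, 20711650 to 20764332 in mm9, minus strand) was 56.6, 46.1 and 53.5 FPKM in untreated replicates 1, 2 and 3 and 50.9, 54.3 and 57.2 in tamoxifen replicates 1, 2 and 3. The groups overlapped, with means of 52.1 ± 5.43 and 54.1 ± 3.14 FPKM (SD, n = 3), and the direction differed between replicate numbers. The log2 fold change was 0.06 (95% interval -0.40 to 0.52, limma adjusted p = 0.999), a fold between 0.76 and 1.43. Uhrf1 (chromosome 17, 56442760 to 56462909, plus strand) was 93.0, 71.6 and 82.9 FPKM untreated and 86.9, 78.3 and 84.7 in tamoxifen. Replicate 1 was the highest and replicate 2 the lowest in both groups, and the log2 fold change was 0.02 (95% interval -0.46 to 0.50, limma adjusted p = 1). With the replicate block the intervals narrowed to folds of 0.88 to 1.23 for Dnmt1 and 0.874 to 1.18 for Uhrf1. The ratio of Uhrf1 to Dnmt1 within a sample lay between 1.44 and 1.71 and overlapped between groups.

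Among the de novo genes, Dnmt3a was lower in tamoxifen within each replicate number, while Dnmt3b differed in direction between them. Dnmt3a (chromosome 12, 3806980 to 3914443, plus strand) was 25.8, 23.3 and 31.6 FPKM in untreated replicates 1, 2 and 3 and 13.1, 16.8 and 27.0 in the tamoxifen replicates. Replicates 1 and 2 in tamoxifen lay below all untreated samples and replicate 3 lay within the untreated range, although each tamoxifen sample was below the untreated sample of its own number. The means were 26.9 ± 4.27 and 19.0 ± 7.16 FPKM (SD, n = 3), and the log2 fold change was -0.56 (SE 0.29, limma adjusted p = 0.999), a fold of 0.68. Within replicate numbers 1, 2 and 3 the log2 difference was -0.97, -0.47 and -0.23. With the replicate block the SE was 0.14 and the limma adjusted p 0.0505, just short of the threshold, with a 95% interval of -0.89 to -0.22. The call depended on the setting, with a limma adjusted p of 0.0371 at a pseudocount of 1 and of 0.219 after scaling to TPM, both with the block. The transcribed region of Dnmt3a overlaps Gm10485, which was at 0 FPKM in all samples.

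Dnmt3b (chromosome 2, 153475185 to 153513466, plus strand) was 72.6, 55.2 and 78.8 FPKM untreated and 44.5, 68.3 and 124 in tamoxifen. The tamoxifen samples spread 2.79-fold from lowest to highest and held both the lowest and the highest value of all 6. The log2 fold change was 0.09 (95% interval -0.75 to 0.92, limma adjusted p = 0.999), made of -0.71, 0.31 and 0.65 in replicate numbers 1, 2 and 3. Each number weighed on this estimate, since the block fit gave 0.48 (limma adjusted p = 0.021) without replicate 1, -0.03 without replicate 2 and -0.20 without replicate 3. Dnmt3l (chromosome 10, 77505032 to 77526360, plus strand) was 161, 120.4 and 159 FPKM untreated and 173, 136 and 151 in tamoxifen. Replicate 2 was the lowest in both groups, and the log2 fold change was 0.07 (95% interval -0.47 to 0.61, limma adjusted p = 0.999). The Dnmt3l locus overlaps that of Aire, so reads of the pair could be divided between them.

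Dnmt3b stood higher relative to Dnmt3a in tamoxifen within each replicate number. The ratio of Dnmt3b to Dnmt3a in FPKM was 2.81, 2.36 and 2.49 in untreated replicates 1, 2 and 3 and 3.38, 4.07 and 4.60 in the tamoxifen replicates. All 3 tamoxifen ratios lay above all untreated ones, with means of 2.56 ± 0.231 and 4.02 ± 0.609 (SD, n = 3), which 10.9% of all pairs of tested genes also show. The ratio was picked out after the levels had been seen and is given as a description without a test.

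In these fits Tet1 alone of the 8 genes passed the threshold, and with the block only. Tet1 (chromosome 10, 62267318 to 62342762, minus strand), which with Tet2 provides most 5-methylcytosine oxidation in ESCs, was 12.5, 27.2 and 28.4 FPKM in untreated replicates 1, 2 and 3 and 9.84, 19.9 and 21.4 in the tamoxifen replicates. The groups overlapped, with replicate 1 low in both, and within each number the tamoxifen sample was the lower. The means were 22.7 ± 8.86 and 17.1 ± 6.31 FPKM (SD, n = 3), and without the block the log2 fold change of -0.40 (SE 0.40, limma adjusted p = 0.999) was no larger than its error. The differences within numbers 1, 2 and 3 were -0.34, -0.45 and -0.40, close to each other. With the replicate block the SE was 0.09 and Tet1 fell by 24.1% (95% interval of the fold 0.651 to 0.884, limma adjusted p = 0.0393). The limma adjusted p with the block was 0.034 at a pseudocount of 1, 0.0169 where only genes with at least 1 FPKM in all samples were kept, and 0.0215 without replicate 1. It was 0.063 after quantile normalization, 0.515 after scaling to TPM, 0.0794 without a variance trend, 0.171 without a filter, 0.218 without replicate 2 and 0.145 without replicate 3, so the call was lost in these settings.

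Tet2 (chromosome 3, 133126641 to 133207354, minus strand) was 4.18, 7.48 and 9.29 FPKM untreated and 4.89, 9.38 and 10.6 in tamoxifen. Each tamoxifen sample was above the untreated sample of its number, by 0.22, 0.32 and 0.20 on the log2 scale, while the groups overlapped. The log2 fold change of 0.25 had a limma adjusted p of 0.999 without and 0.177 with the block, and the 95% interval with the block ran from a fold of 0.995 to 1.41. Tet3 (chromosome 6, 83312368 to 83391672, minus strand), the member most used in the oocyte and zygote, was 1.08, 1.95 and 2.14 FPKM untreated and 0.745, 1.48 and 1.87 in tamoxifen. Each tamoxifen sample was below the untreated sample of its number, with a log2 fold change of -0.35 and a limma adjusted p of 0.999 without and 0.218 with the block (95% interval of the fold 0.595 to 1.04 with the block). The deposited interval around a single Tet3 value was 18.1% to 30.4% of the value wide, against 5.72% to 8.95% for Tet1, so Tet3 was the least precisely measured member.

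**Figure D2:**
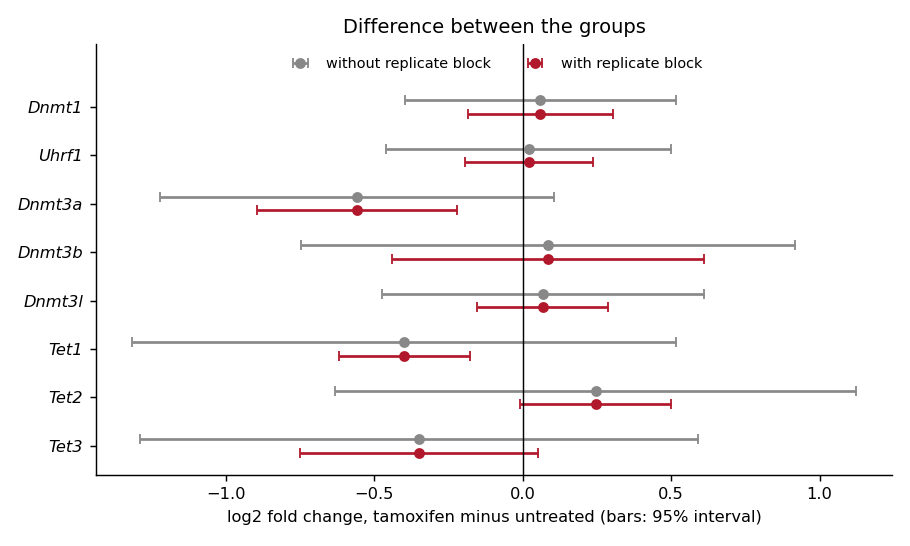
Log2 fold change of tamoxifen over untreated (x axis) for each gene (y axis), with 95% intervals from limma without the replicate block (grey) and with it (red), 3 samples per group. The estimates are the same in both fits, all grey intervals cross 0, and with the block those of Dnmt3a and Tet1 lie below 0.

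In FPKM the 3 TET genes shared a low replicate 1. The mean of replicates 2 and 3 over replicate 1 was 2.23 in untreated and 2.104 in tamoxifen cells for Tet1, 2.00 and 2.05 for Tet2, and 1.90 and 2.25 for Tet3. Their size depended on the scaling, because the FPKM of a sample summed to between 549379 in untreated replicate 1 and 1045707 in untreated replicate 2. After TPM scaling, which sets all sums equal, the values were 1.35 and 1.72 for Tet1, 1.23 and 1.68 for Tet2, and 1.153 and 1.87 for Tet3, and untreated replicate 2 was below replicate 1 for Tet2 and Tet3. With loci under 300 bp taken out first, the value for Tet1 was 2.65 in untreated and 2.66 in tamoxifen cells. For Dnmt1, Uhrf1 and Dnmt3l the FPKM values lay between 0.83 and 1.09. For Dnmt3a the FPKM value was 1.66 in tamoxifen and 1.06 in untreated cells, and for Dnmt3b it was 2.16 and 0.922. Of the 10 feeder fibroblast markers 9 were tested, and the 10 summed to between 176 and 427 FPKM in untreated and between 259 and 307 FPKM in tamoxifen samples. In FPKM, replicate 1 was the lowest of both groups for S100a4, Col1a1, Col1a2, Col3a1, Dcn, Thy1, Postn and Lum, as for the TET genes. S100a4 was at 51.7, 123 and 138 FPKM untreated and 39.7, 85.8 and 122 in tamoxifen. Col1a1 was at 15.6, 40.3 and 31.2 FPKM untreated and 19.3, 38.2 and 29.7 in tamoxifen. Lum and Postn were below 1 FPKM in all samples. For Tagln and Acta2 replicate 1 was lowest untreated but highest in tamoxifen. Tagln was 73.2, 74.9 and 147 untreated and 137, 59.2 and 80.1 in tamoxifen. Of the 9 tested markers, 0 passed the threshold with the block, and the part of feeder cells in the TET levels was not tested.

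Ratios within a sample leave out what its genes share, and are given as a description without a test. Tet2 over Tet1 was 0.334, 0.274 and 0.327 in untreated replicates 1, 2 and 3 and 0.497, 0.470 and 0.497 in the tamoxifen replicates. The groups did not overlap, with means of 0.312 ± 0.0327 and 0.488 ± 0.0152 (SD, n = 3), and the ratio was 1.49, 1.71 and 1.52 times as high in tamoxifen within numbers 1, 2 and 3. Tet3 over Tet1 was 0.0863, 0.0716 and 0.0755 untreated and 0.0757, 0.0743 and 0.0873 in tamoxifen, with overlap. Tet1 made up 70.4% to 74.3% of the summed TET FPKM in untreated and 63.1% to 64.7% in tamoxifen cells, and Tet2 made up 20.4% to 23.5% and 30.4% to 31.6%, neither with overlap. The summed TET FPKM was 17.8, 36.7 and 39.8 untreated and 15.5, 30.8 and 34.0 in tamoxifen, with overlap. Of the 28 ratios between members, 4 did not overlap between groups, and 3 of these 4 include Tet2 (over Tet1, over Tet3 and over Dnmt3a). The same 10.9% of all 84454506 pairs of genes tested is the background, so a ratio without overlap was not rare in these samples.

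**Figure D3:**
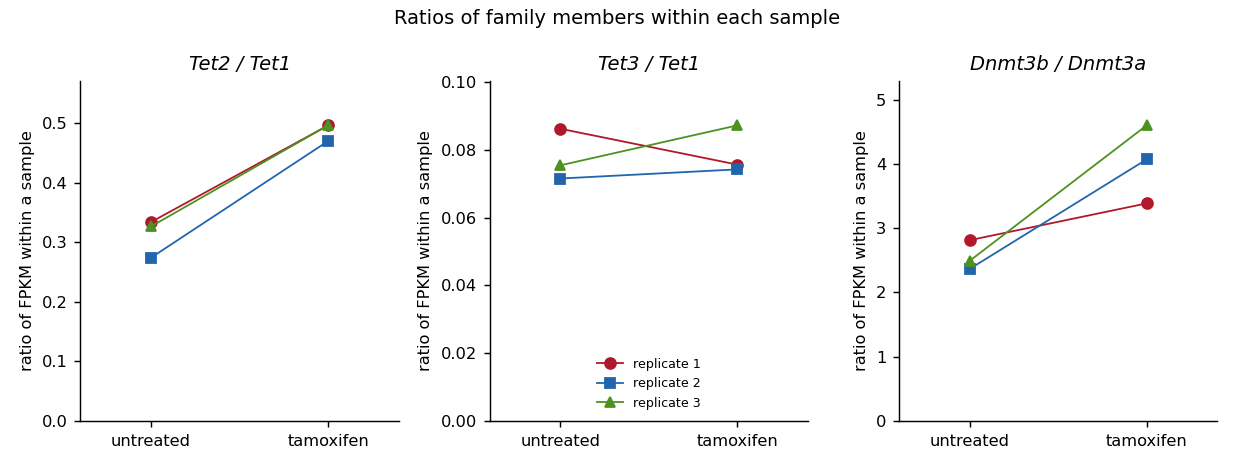
Ratio of FPKM between family members within a sample (y axes, each from 0) in untreated and tamoxifen cells, with lines joining samples of the same replicate number. Tet2 over Tet1 and Dnmt3b over Dnmt3a are higher in all 3 tamoxifen samples than in all untreated ones, and Tet3 over Tet1 overlaps.

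Genes with the profiles most like those of the members over the 6 samples were found among 8439 genes of at least 5 FPKM, by the root mean square difference of centred log2(FPKM + 0.1). The nearest to Tet1 were Slc30a4 and Adam9 (0.080 and 0.089, where the median gene had 0.651). Those of Tet2 were EU599041 and Gm14325, and those of Dnmt3a were Dapk1 and Nnt. Spata13 and Gm9833 were nearest to Dnmt3b, at 0.129 and 0.140. The flatter members Dnmt3l (Anxa7 and Arpc5), Uhrf1 (Golga5 and Ube2q1) and Dnmt1 (Mybbp1a and Rbm10) had nearest genes at 0.0193 to 0.0316. The nearest genes are picked as the smallest of 8439 differences over 6 samples, so values below the median follow from the search itself. No member was among the genes compared, so likeness between members was not part of this search.

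A further 58 genes are called pathway genes here, and 56 were tested. They comprise genes that act with or beside the members, germline genes with promoters methylated in somatic cells, and genes for proteins with a ZF-CxxC domain. Without the block 0 of the 56 passed the threshold in limma. At an unadjusted p under 0.05, 3 were higher and 0 lower, against 241 and 382 of all 12997 genes tested. With the block 7 of the 56 were higher and 0 lower, against 4.33% and 6.06% of all genes. The median log2 fold change of the 56 was 0.09, against -0.02 over all genes tested. The count higher with the block was 10 without replicate 1, 1 without replicate 2 and 4 without replicate 3. In the same order 744, 36 and 359 of all genes were higher. The calls that follow hold in the fit with the block only.

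Dppa3, Prdm14 and Dazl differed most among these 7 genes. Dppa3 codes for a maternal factor that shields methylation in the early embryo and also restrains UHRF1. It was 45.9, 21.6 and 21.8 FPKM in untreated replicates 1, 2 and 3 and 132, 53.6 and 53.4 in the tamoxifen replicates. All tamoxifen samples lay above all untreated ones, and the log2 fold change was 1.37 (SE 0.10 with the block, limma adjusted p = 0.0018, against 0.664 without it). Prdm14, a repressor of de novo methyltransferase genes in naive ESCs, was 2.93, 2.30 and 2.52 FPKM untreated and 5.86, 5.52 and 4.25 in tamoxifen. Again the groups did not overlap, with a log2 fold change of 0.98 (SE 0.15 with the block, limma adjusted p = 0.0105, against 0.433 without it). Dppa3 and Prdm14 are also markers of naive ESCs, a list of 9 in which Nr0b1 and Klf2 were higher too with the block. In all 4 of 9 were higher, against 4.33% of all genes, and 0 were lower. This list was chosen with earlier results of these data known, so the count is a description only. The list was not uniform, since Tbx3 and Tfcp2l1 were below the untreated sample in all 3 replicate numbers, against 28.2% of all genes. Their log2 fold changes were -0.32 and -0.24 (limma adjusted p of 0.112 and 0.191 with the block), and Klf4 was at -0.0003. Tfcp2l1 was 17.0, 16.8 and 20.8 FPKM untreated and 13.5, 16.7 and 15.9 in tamoxifen, also without overlap.

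Trim28, the corepressor that holds methylation at imprinted regions with ZFP57, was 428, 301 and 424 FPKM untreated and 522, 477 and 540.1 in tamoxifen, without overlap, a log2 fold change of 0.43 (limma adjusted p = 0.0477 with the block). Zfp57 itself had a log2 fold change of 0.10 and a limma adjusted p of 0.527 with the block. Among the 6 partners of maintenance methylation, Cdca7, which works with the remodeller HELLS, was 60.2, 42.1 and 43.9 FPKM untreated and 75.3, 55.5 and 58.9 in tamoxifen (log2 fold change 0.38, limma adjusted p = 0.0366 with the block). The groups overlapped for Cdca7, and its 3 differences within numbers were 0.32, 0.40 and 0.42. Hells had a log2 fold change of -0.18 and a limma adjusted p of 0.385 with the block.

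Of the 8 genes that supply methyl groups or 2-oxoglutarate, the cosubstrate of TET enzymes, 2 were higher with the block, against 4.33% of all genes. Ahcy, which clears the methylation inhibitor S-adenosylhomocysteine, was 94.3, 61.0 and 73.8 FPKM untreated and 132, 89.7 and 95.4 in tamoxifen (log2 fold change 0.47, limma adjusted p = 0.0211). Idh2, which makes 2-oxoglutarate in mitochondria, was 83.7, 43.0 and 48.8 FPKM untreated and 112, 63.1 and 57.0 in tamoxifen (0.40, limma adjusted p = 0.0443). For both genes the groups overlapped and the rise was seen within each replicate number. The 9 tested germline genes whose promoters are methylated in somatic cells differed widely in level. Tex19.1 lay between 46.3 and 62.3 FPKM, while Tex101 lay between 0.537 and 1.64 FPKM. Of the 9, the RNA-binding protein gene Dazl was higher and 0 were lower with the block, against 4.33% and 6.06% of all genes. Dazl was at 2.29, 1.76 and 2.68 FPKM untreated and 5.16, 3.16 and 5.03 in tamoxifen (log2 fold change 0.95, limma adjusted p = 0.0105 with the block). The other 8 did not pass, and Taf7l had a log2 fold change of -0.57.

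**Figure D4:**
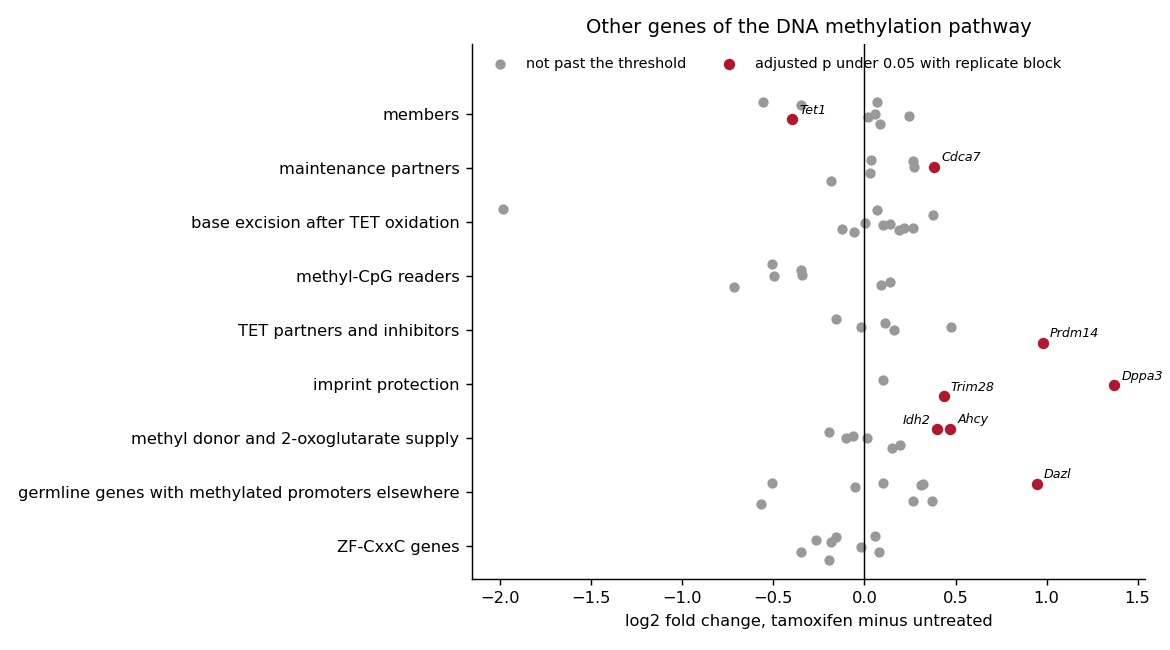
Log2 fold change of tamoxifen over untreated (x axis) for the members and for each list of other pathway genes (y axis, points spread vertically for clarity), 3 samples per group. Red points passed an adjusted p of 0.05 in limma with the replicate block, with Tet1 to the left of 0 and 7 other genes to the right, and the grey point near -2 is Tdg, which is listed at 0 in 1 sample.

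None of the 7 readers of methylated CpG passed the threshold, and their median log2 fold change was -0.35. Zbtb33, Zbtb4, Mbd1 and Mbd2 were lower in all 3 replicate numbers, against 28.2% of all genes. Their limma adjusted p was 0.0607, 0.0701, 0.0987 and 0.0943 with the block. Mbd3, the most expressed reader, had a log2 fold change of 0.14 (limma adjusted p = 0.412 with the block). None of the 11 base excision genes passed with or without the block, with Parp1 nearest (0.38, limma adjusted p = 0.056 with the block) and Apex1, the next most expressed, at 0.22 (0.158). Tdg, the glycosylase that removes oxidised 5-methylcytosine, was 4.70, 4.32 and 5.53 FPKM untreated and 3.57 and 5.13 in tamoxifen replicates 2 and 3, and is listed at 0 in tamoxifen replicate 1. Of 11 tested genes for proteins with a ZF-CxxC domain, Tet1 was the only one past the threshold with the block, where 6.06% of all genes were lower. The median log2 fold change of the 11 was -0.19. Kdm2b had a log2 fold change of -0.19 and its paralogue Kdm2a of -0.20, with limma adjusted p of 0.306 and 0.335 with the block.

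Markers of cell states in which these enzymes are used differently were read beside the members. In the limma fit with the block 0 of 6 primed markers (Zic2 and Pou3f1 the most expressed), 0 of 9 ESC markers and 0 of 12 S phase genes (Pcna and Rrm2 the most expressed) passed the threshold. The log2 fold change was above 0 for 4 primed markers, 8 ESC markers and 11 S phase genes, with medians of 0.06, 0.22 and 0.12. In the same order 0, 6 and 4 were higher in all 3 replicate numbers, against 24.8% of all genes. Of the 7 primitive endoderm markers 4 were tested, and Gata6 (0.328 ± 0.0981 against 1.13 ± 0.581 FPKM, SD, n = 3) and Gata4 (0.998 ± 0.148 against 1.92 ± 0.579 FPKM, SD, n = 3) were lower in tamoxifen. Their limma adjusted p was 0.0174 and 0.0359 with the block, where 6.06% of all genes were lower. Gata6 was above 0.5 FPKM in all 3 untreated samples and below it in tamoxifen (0.311, 0.239 and 0.433 FPKM). It thus entered the test through the untreated group alone, and its call as lower is not independent of the filter. Dab2, the most expressed of the 4, had a log2 fold change of 0.23 (limma adjusted p = 0.305 with the block) and was higher in all 3 replicate numbers. The summed level of the 7 markers was 7.32 to 10.7 FPKM in untreated and 4.78 to 9.18 FPKM in tamoxifen samples. The part of naive or primitive endoderm cells in the member levels was not tested.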

How the data were processed

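RNA-seq libraries of Kdm2b fl/fl ESCs, 3 untreated and 3 treated with tamoxifen, were analysed from the gene tables deposited by the authors, which hold FPKM per gene with an interval whose level is not stated. The study's methods describe alignment to mm9 and refGene models, and the submitters' processing notes name TopHat2 0.5, Bowtie 1.1.2, Cufflinks 2.1.1 and Cuffdiff 2.1.1. Counts were not used here, so depth is known only as relative depth from single-fragment steps in 1211 low genes, of which 29.3% to 49.5% fell on a step against 1.73% to 2.64% on other grids. No correction for GC or length was applied, and a large change in a few genes shifts all FPKM of a sample.

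FPKM of entries that share a name were summed, and 6 of 23369 names with a failed status in any sample were left out. Genes with at least 0.5 FPKM in at least 3 samples were compared between groups as log2(FPKM + 0.1), using R 4.3.3 and limma 3.58.1 (eBayes with trend, Benjamini-Hochberg adjustment, two-sided). The pseudocount pulls the fold changes of low genes towards 0. Replicate numbers come from the sample titles. Deviations from the group mean correlated at 0.544, 0.605 and 0.506 between samples of the same number, so the fit with the number as a block is given beside the fit without it. Between others they correlated at -0.379 to -0.105. Because deviations within a group sum to 0, positive values at the same number force negative ones on average between others. The negative values therefore add no separate evidence of pairing. Tables were made in Python 3.11.15 with pandas 2.3.3, and the fits were tested on simulated data.

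The members and gene lists were chosen with earlier results of these data known. Named genes were the 8 members, up to 3 genes per direction and list with the smallest p among those past the threshold with the block (or the 2 most expressed where none passed), Kdm2b and Kdm2a, and the 2 genes of nearest profile to each member (those of Tet3 are not reported here). Hells, Zfp57, Taf7l, Tex19.1, Tex101, Tdg, Klf2, Klf4, Tbx3, Tfcp2l1, Dab2 and the readers Zbtb33, Zbtb4 and Mbd1 were added after their values were seen. So were the feeder markers Col1a1, Col1a2, Col3a1, Dcn, Thy1, Postn, Lum and Acta2. Alternatives were pseudocounts of 1 and 0.01, TPM scaling, quantile normalization, loci under 300 bp left out, other filters, no variance trend, the replicate block and leaving out each replicate. The block with at least 1 FPKM in all 6 samples, with no filter and without a trend were chosen after seeing the data, as were the replicate gaps by scaling. Files give positions in mm9, and promoters are from RefSeq in GRCm38.p6.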

Additional observations from a re-analysis of the deposited data

How the results depend on the processing

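The 4 members with the smallest differences changed sign with the scaling or with single samples. The log2 fold change of Dnmt1 turned to -0.0281 once loci under 300 bp were removed ahead of TPM scaling, and that of Uhrf1 to -0.0669, of Dnmt3b to -0.0027 and of Dnmt3l to -0.0197 under the same setting, which moved the median of all genes from -0.02 to -0.11. Quantile normalization turned Uhrf1 to -0.0506 and Dnmt3l to -0.0423, with and without the block. Leaving out 1 sample from the fit without the block gave -0.0259 (without untreated replicate 2) to 0.1228 for Dnmt1, -0.0772 (without untreated replicate 2; -0.0104 without tamoxifen replicate 1) to 0.1116 for Uhrf1, -0.3041 (without tamoxifen replicate 3; -0.0666 without untreated replicate 2) to 0.4343 for Dnmt3b, -0.0677 (without untreated replicate 2; -0.0215 without tamoxifen replicate 1) to 0.1511 for Dnmt3l, -0.0799 (without untreated replicate 1) to 0.5855 for Tet2 and -0.6363 to 0.0061 (without tamoxifen replicate 1) for Tet3. With the block, leaving out replicate 2 gave -0.0290 for Dnmt1, -0.0332 for Uhrf1 and -0.0264 for Dnmt3b, and leaving out replicate 3 gave -0.1987 for Dnmt3b. The cause of these turns was not tested. Dnmt3a and Tet1 were below 0 in all 26 settings, and passed the threshold in 3 and 4 of them, all with the block.

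With the replicate block, 563 of all genes were higher and 787 lower, 1 member was lower, and 7 pathway genes were higher. In the block fit the count of all genes higher was 430 after TPM scaling, 659 at a pseudocount of 1, 558 after quantile normalization, 810 with at least 1 FPKM in all 6 samples, 328 without a trend and 0 with no filter, and the count lower was 336, 931, 586, 1038, 583 and 0 in the same order. Pathway genes higher were 6, 8, 5, 10 and 3 in the first 5 of these settings, and 1 was lower after TPM scaling, with at least 1 FPKM and without a trend. Members lower were 2 (Dnmt3a and Tet1) at a pseudocount of 1 and with at least 1 FPKM, a filter that Tet3 did not pass. Without the block, 0 genes were higher and 0 lower with at least 1 FPKM, 1 was higher and 0 lower with no filter, and 0 were lower at a pseudocount of 1. Leaving out replicates, with an arm of fewer samples in each fit, gave 2 to 5 genes higher and 0 to 7 lower without the block, and with it 744, 36 and 359 higher and 1011, 43 and 478 lower without replicates 1, 2 and 3. Members ranged from 0 to 1 higher (Dnmt3b, without replicate 1) and from 0 to 1 lower, and pathway genes from 0 to 10 higher and from 0 to 3 lower. FPKM without counts limits what can be said of depth, and Tet3 is measured least precisely.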
